A study of Mus musculus with 6 samples.

Results

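The genes described here mark the bile duct epithelium of the liver and the progenitor-like cells that arise beside it. The 9 listed markers were the keratins Krt7, Krt19, Krt8, Krt18 and Krt23, the surface proteins Epcam, Cd24a and Prom1, and the transcription factor Sox9. A gene was taken as measured where a feature of the array carried its symbol and no other, which gave 7 of the 9 genes, among 16828 genes tested. Krt7 shared its feature with Krt86, and Cd24a shared its 2 features with Gm6212, so no level is given for either gene.

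The mice were C57BL/6 animals aged 24 months labelled SRSF3HKO, with Srsf3, which encodes a splicing factor of the SR family, deleted in hepatocytes. The comparison set 3 hepatocellular carcinomas (tumour 405, 483 and 616) against liver without tumour from 3 samples (non-tumour 405, 483 and 623), with 1 biotin-labelled array per sample and no treatment. Both groups carried this label, so no sample labelled as intact for Srsf3 entered the comparison. The sources used here do not name the promoter that drives the deletion. The labels do not say whether equal numbers mark the same mouse or whether a group's samples are from different animals, so p-values measure the spread between these samples only.

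Cholangiocytes line the bile ducts and form a simple epithelium held together by keratin filaments. Every keratin filament pairs a type I with a type II chain. Hepatocytes carry the pair Krt18 and Krt8, whereas duct cells add Krt19 and Krt7. In injured liver, ductular cells with Sox9, Epcam and Prom1 expand around the portal tracts, and in human liver carcinoma KRT19 and EPCAM are used to recognise tumours with progenitor features.

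Values are levels, log2(intensity + 16), after quantile normalization of the 6 arrays, and differences are tumour minus non-tumour in log2 units. Where a gene's 6 levels are listed, the order is 405, 483 and 623 for non-tumorous liver and 405, 483 and 616 for the tumours. As deposited the arrays were not on one scale: their median intensities ran from 122 to 197 in non-tumour and from 83.6 to 151 in tumour, and the difference of the median gene was -0.48. After quantile normalization it stood at -0.05, and after each array's median was taken off at 0.06. For Srsf3 the non-tumorous arrays gave 10.51, 10.55 and 9.36 and the tumours 10.79, 10.55 and 9.89, a difference of 0.27 ± 0.40 (SE, n = 3 each, limma adjusted p = 0.921). Whether its feature covers the deleted part is unknown here, so these values check neither the deletion nor the labels. Non-tumour 623 stood apart in sex genes, with Xist at 5.17 and Eif2s3y, a Y-linked gene, at 8.69. Elsewhere Xist lay at 10.55 to 12.30 and Eif2s3y at 5.10 or less. A test of 3 against 3 samples by exact permutation cannot go below p = 0.1.

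Promoter windows are shown for the hepatocyte keratin pair and for Krt23, the marker with the greatest difference between the groups. Each holds 250 bases before and 50 after the RefSeq start of the gene on GRCm38.p6, 5′ to 3′ on the gene's strand, with capitals for matches to the short motifs named after them. Krt18 lies at chr15:102027966-102028265 on the plus strand, Krt8 at chr15:102004293-102004592 on the minus strand, and Krt23 at chr11:99493071-99493370 on the minus strand.
Krt8: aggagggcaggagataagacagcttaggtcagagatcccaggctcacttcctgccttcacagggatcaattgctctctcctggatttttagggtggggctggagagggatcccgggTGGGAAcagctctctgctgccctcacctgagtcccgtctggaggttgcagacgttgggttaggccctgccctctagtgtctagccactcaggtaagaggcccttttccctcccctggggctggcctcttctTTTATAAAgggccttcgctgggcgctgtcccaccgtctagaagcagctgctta
Krt18: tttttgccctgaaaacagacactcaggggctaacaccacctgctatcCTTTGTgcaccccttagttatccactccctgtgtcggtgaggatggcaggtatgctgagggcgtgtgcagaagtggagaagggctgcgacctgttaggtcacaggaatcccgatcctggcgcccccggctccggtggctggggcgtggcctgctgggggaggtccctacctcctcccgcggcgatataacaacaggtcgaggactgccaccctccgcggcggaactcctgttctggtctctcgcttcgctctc
Krt23: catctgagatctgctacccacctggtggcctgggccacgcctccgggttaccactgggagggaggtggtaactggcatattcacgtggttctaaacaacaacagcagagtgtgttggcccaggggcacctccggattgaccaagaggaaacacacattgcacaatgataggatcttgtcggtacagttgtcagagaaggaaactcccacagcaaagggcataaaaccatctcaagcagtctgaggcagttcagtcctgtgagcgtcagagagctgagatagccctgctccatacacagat

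Krt8 and Krt18 point away from each other, with 23.9 kb between their starts. Of the 7 measured genes, 5 had windows in the RefSeq table, and Prom1 had 2, which made 6 windows. Both strands were searched for 6 short motifs. The core promoter box spelled TATAAA was in 13.6% of all 32851 promoter windows, and the Krt8 window held overlapping matches to it. The motif of RBPJ, the DNA-binding partner of Notch, spelled TGGGAA, was in 25.6% of all windows, in that of Krt8 and in 1 of Prom1. The motif of SOX factors, spelled ACAAAG, was in 18.7% of all windows and in that of Krt18, on the opposite strand. Krt23 held none of the 6 motifs. The motif of TEAD factors, the DNA-binding partners of Yap1, spelled GGAATG, was in 14.7% of all windows and in 0 of these 6. The motif known as the GC box, spelled GGGCGG, was in 35.7% of all windows, in that of Epcam and in 1 of Prom1. The AP-1 motif, spelled TGANTCA with any base for N, was in 7.81% of all windows and in both of Prom1. A match describes these letters only.

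None of the 7 measured markers passed the test between tumour and non-tumorous liver. Krt23 lay highest above zero, at 1.87 ± 0.62 (SE, n = 3 each), and Prom1 lowest, at -0.49 ± 0.40. Krt19, Krt8, Krt18, Epcam and Sox9 lay between -0.10 and 0.17. limma called 0 of the 7 at an adjusted p under 0.05, where it called 0.0% of all genes. At an unadjusted p under 0.05 it gave Krt23 alone, 1 of 7, a gene that passed the limit for dim features through the tumour arrays, against 3.71% of all genes in either direction, 2.7% higher and 1.02% lower in tumour. The groups did not overlap in 0 of the 7, against 7.85% of all genes, 3.97% higher and 3.88% lower. As deposited, limma called 0.315% of all genes and 0 of the 7, and after median centring 0.0% and 0 of the 7. The median difference over the 7 was 0.05, and over all genes -0.05.

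**Figure D1:**
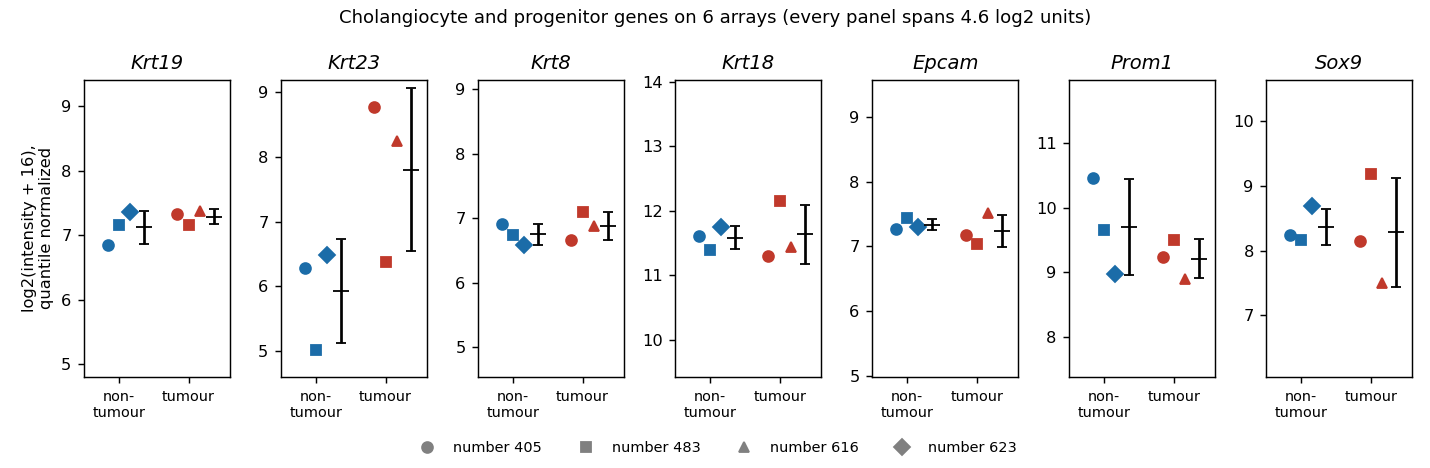
Normalized level, log2(intensity + 16), of the 7 measured markers on each of 6 arrays. Each panel is 1 gene, with non-tumour in blue, tumour in red, a symbol for each label number, and the mean ± SD of 3 arrays in black. Krt23 spans 3.77 log2 units over the arrays, with tumour 405 and 616 above all others, while Krt19, Krt8 and Epcam span 0.48 to 0.52.

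Krt23, a type I keratin that is low in healthy hepatocytes and described in diseased liver, differed most. The non-tumorous arrays gave 6.29, 5.01 and 6.49 and the tumours 8.78, 6.38 and 8.25. Tumour 405 and 616 were above every non-tumour array, but tumour 483 was just below non-tumour 623, so the groups overlapped. Its mean was 5.93 ± 0.80 without tumour against 7.80 ± 1.26 in tumour (SD, n = 3 each), which missed the threshold after adjustment (limma, unadjusted p = 0.0160, adjusted p = 0.916). In samples that share a number, tumour lay above non-tumour by 2.50 in 405 and by 1.37 in 483.

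The deposited intensities of Krt23, in the same order, were 92.8, 15.5 and 101 without tumour and 289.8, 74.0 and 242.5 in the tumours. The non-tumour mean, 5.93, lay under the limit set for dim features, 6.22, so Krt23 passed that limit through the tumour arrays and had to be higher there. Its sign and its unadjusted p are therefore given as a description, and no ratio is given against the dim group. With no limit on dim features the difference was again 1.87 (limma, unadjusted p = 0.0145, adjusted p = 0.939). At 15.5 the value of non-tumour 483 was close to the constant of 16 added before the log. With 1 added in its place the difference was 2.24, and with 64 it was 1.34.

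The size of the Krt23 difference depended on single arrays. Without tumour 483 it was 2.57 ± 0.44 (SE), and the groups did not overlap, as for 12.5% of all genes in that direction with 1 array fewer (limma, unadjusted p = 0.000489, adjusted p = 0.643). Without non-tumour 623 it was 2.08 ± 0.71 with no overlap, as for 12.4% of all genes. Without non-tumour 483 it was 1.43 ± 0.64 (unadjusted p = 0.0580), and 0 of the 7 markers then had an unadjusted p under 0.05. Without tumour 405 it was 1.40 ± 0.60. As deposited it was 1.38 ± 0.39 (adjusted p = 0.0841), on a scale where limma estimated infinite prior degrees of freedom.

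**Figure D2:**
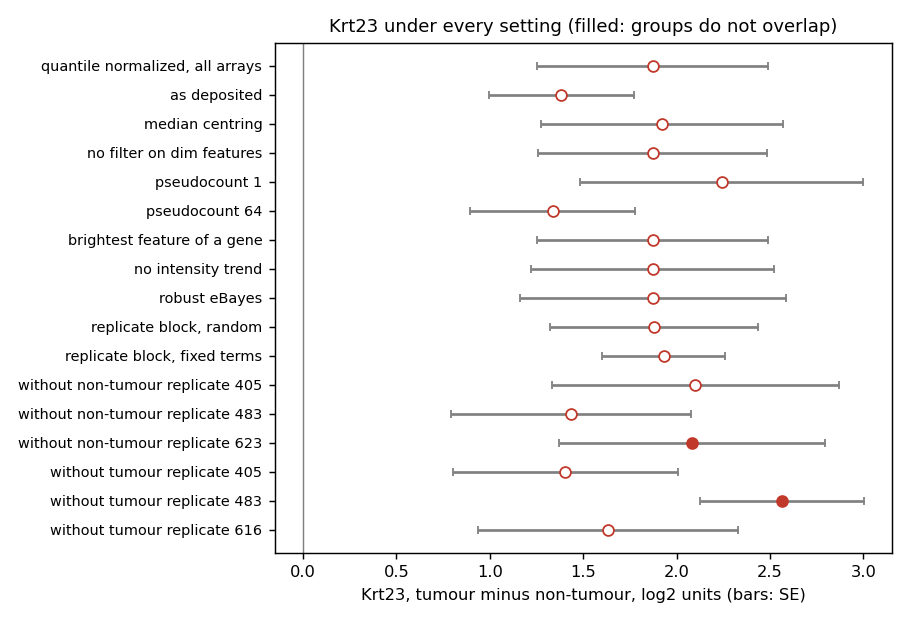
Difference of Krt23 between tumour and non-tumour, in log2 units with its SE, under the main setting and each of 16 alternatives. Filled points mark settings in which the groups do not overlap. The points run from 1.34 with 64 added before the log to 2.57 without tumour 483.

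Krt19, the keratin that most sharply separates duct cells from hepatocytes, was nearly level. It stood at 6.84, 7.16 and 7.35 without tumour and at 7.33, 7.15 and 7.37 with it. The groups overlapped, with non-tumour 405 the lowest array and the other 5 close together. The difference was 0.17 ± 0.20 (SE, limma adjusted p = 0.916). Its 95% interval, -0.29 to 0.62, allows ratios from 0.819 to 1.54, so a moderate difference in either direction remains possible.

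Krt8, the type II keratin of hepatocytes and duct cells alike, varied as little. The 3 non-tumorous arrays read 6.91, 6.75 and 6.59 and the 3 tumours 6.66, 7.10 and 6.88. The groups overlapped in part, with tumour 483 above every non-tumour array and non-tumour 623 below every tumour. The difference was 0.13 ± 0.19 (SE, limma adjusted p = 0.920). This is the brighter of 2 Krt8 features, at deposited intensities of 53.5 to 149.5. Its normalized levels, 6.59 to 7.10, lay little above the limit for dim features, 6.22, which is set on normalized means. The other feature, at deposited intensities of 0.116 to 26.5, read 4.04 to 5.03 and was below that limit on every array. Its difference was 0.14. The feature of the partner Krt18 had deposited intensities of 2185 to 4788. A small span of so dim a feature does not establish a steady Krt8 level.

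Krt18, the type I partner of Krt8, was measured by a bright feature. Its levels were 11.60, 11.39 and 11.75 in non-tumorous liver, against 11.31, 12.15 and 11.45 in carcinoma. Tumour 483 was the highest array and tumour 405 the lowest, so the tumours enclosed all of the non-tumour arrays. The difference was 0.05 ± 0.26 (SE, limma adjusted p = 0.971). After median centring the difference was 0.60 ± 0.32 and the groups did not overlap, as for 4.05% of all genes in that direction (adjusted p = 0.955). As deposited it was 0.06, or 0.54 above the median gene.

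The signs of Krt19 and Krt8 turned on the deposited scale, but not relative to the median gene. As deposited Krt19 stood at -0.40 and Krt8 at -0.39, where the median gene stood at -0.48, so they lay 0.08 and 0.09 above it. After median centring they were 0.14 and 0.15. Epcam was negative on all 3 scales, at -0.62 as deposited, -0.08 after median centring and -0.10 after quantile normalization.

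**Figure D3:**
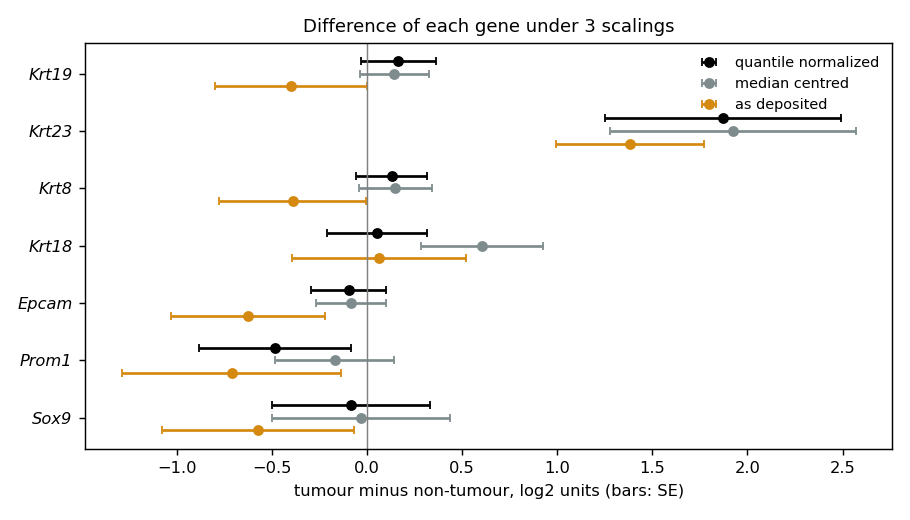
Difference of each marker between tumour and non-tumour, in log2 units with its SE (n = 3 each), after quantile normalization (black), after median centring (grey) and as deposited (orange). Krt23 lies to the right of 0 on all 3 scales, at 1.38 to 1.92, Krt19 and Krt8 change side as deposited, and Krt18 moves to 0.60 after median centring.

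Epcam, the adhesion molecule of duct epithelium and of hepatic progenitor cells, varied least of the 7. Non-tumorous liver gave 7.27, 7.44 and 7.31, and carcinoma 7.17, 7.04 and 7.52. Tumour 616 was highest and tumour 483 lowest, and the non-tumour arrays fell between them. The difference was -0.10 ± 0.20 (SE, 95% interval -0.55 to 0.36, limma adjusted p = 0.934). As deposited every tumour array was below every non-tumour array, which held for 11.7% of all genes on that scale. Without tumour 616 the groups did not overlap either, as for 6.7% of all genes in that direction.

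Prom1, the membrane protein prominin 1 of progenitor and duct cells, had 2 bright features, and their median gave its value. The non-tumorous levels were 10.46, 9.66 and 8.98, and those of the tumours 9.23, 9.50 and 8.90. Non-tumour 405 stood highest and non-tumour 623 below 2 of the tumours, so the groups overlapped. The difference was -0.49 ± 0.40 (SE, limma adjusted p = 0.916). After median centring it was -0.17 ± 0.31. The features gave -0.65 and -0.32, and both were highest in non-tumour 405. Without non-tumour 405 the difference was -0.11 ± 0.35. Without non-tumour 623, the array that stood apart in sex genes, it was -0.86 ± 0.36 and the groups did not overlap, as for 19.1% of all genes in that direction (limma, unadjusted p = 0.0521, adjusted p = 0.483).

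Sox9, the transcription factor that specifies bile ducts and marks ductular cells, differed between arrays more than between groups. Its non-tumorous levels, 8.24, 8.17 and 8.68, lay inside the range of the tumours, at 8.15, 9.19 and 7.50. The tumours held both the highest array, 483, and the lowest, 616, a span of 1.68. The means were 8.36 ± 0.28 and 8.28 ± 0.85 (SD, n = 3 each), with a difference of -0.08 ± 0.42 (SE, limma adjusted p = 0.971). Without tumour 483 it was -0.53 ± 0.33 with no overlap, as for 11.6% of all genes in that direction, and without tumour 616 it was 0.30 ± 0.39. In samples that share a number it was -0.09 in 405 and 1.02 in 483.

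The 7 markers did not follow 1 order of arrays. Sox9 and Krt18 were both highest in tumour 483, then in non-tumour 623 and non-tumour 405. Krt8 too was highest in tumour 483, but lowest in non-tumour 623. Krt19 and Epcam were highest in tumour 616, Krt23 in tumour 405 and Prom1 in non-tumour 405. Over the 6 arrays Epcam spanned 0.48, Krt8 0.51, Krt19 0.52 and Krt18 0.84, beside a median span of 0.83 over all genes. Prom1 spanned 1.55, Sox9 1.68 and Krt23 3.77. A span as small as that of Epcam was found in 15.3% of all genes, and 99.2% had one no greater than that of Krt23.

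Likeness was measured as the mean absolute difference between a pair of genes over the 6 arrays, each gene taken relative to its own mean, and is a description without a test. The 4 genes most like Krt19 were Olfr389, an odorant receptor gene (0.03), Nhsl2 (0.03), Zfp105, a zinc-finger gene (0.04), and Zcchc17, a zinc-finger and RNA-binding gene (0.04). Those most like Epcam were Ift43, a subunit of the ciliary transport complex (0.03), Otop1, a proton channel of the inner ear and taste cells (0.04), Trpm8, the cold receptor of sensory neurons (0.04), and Cfap97d2 (0.04). Nearest to Krt8 were Dlx6os1, a non-coding RNA beside Dlx6 (0.05), Ppme1, a phosphatase methylesterase (0.05), Itga2b, the platelet integrin (0.05), and Phf1, a Polycomb-associated protein (0.05). No other marker was among these neighbours: Epcam stood 0.20 from Krt19 and Krt18 stood 0.21 from Krt8. The normalized levels of Krt19, Epcam and Krt8 ran from 6.59 to 7.52, not far above 6.22, the limit on the mean below which features were left out.

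Other genes of the ducts, of progenitor cells and of the pathways that form ducts gave few differences. Across 6 lists, 77 of 88 genes were measured, and limma called 0 of them at an adjusted p under 0.05. At an unadjusted p under 0.05, 3 were higher and 2 lower in tumour, 6.49% against 3.71% of all genes. Among the higher ones, Nrarp passed the limit for dim features through the tumour arrays. The groups did not overlap for 1 higher and 3 lower, 5.19% against 7.85% of all genes. The direction counts that follow are for quantile normalization unless stated, and the scale moved them. On the deposited scale, with the median gene itself at -0.48, most genes of each of the 6 lists were negative, from 13 of 16 Notch genes to 7 of 7 other keratins.

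Of 18 further cholangiocyte genes 13 were measured, with a median difference of -0.18, 3 positive and 10 negative (4 and 9 after median centring, median -0.07). Muc1, a mucin of the apical membrane, lay at 7.33 ± 0.42 in non-tumour and 6.74 ± 0.03 in tumour (SD, n = 3 each), with no overlap and an unadjusted p of 0.0327 (limma, adjusted p = 0.916). Elf3, an epithelial ETS factor, stood at 1.15 ± 0.54 (SE) and Onecut1, a hepatic and biliary developmental factor also made by hepatocytes, at -1.16 ± 0.55. The non-tumour mean of Elf3, 6.19, was under the limit for dim features, 6.22, so Elf3 had to be higher in tumour. Sctr, the secretin receptor of cholangiocytes, stood at -0.29 ± 0.25. Elf3 was highest in tumour 483, at 8.21, and Onecut1 in non-tumour 483, at 10.50.

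Of 12 progenitor genes all were measured, with a median of -0.17, 4 positive and 8 negative (5 and 7 after median centring, median -0.03). Tnfrsf12a, the receptor of the cytokine TWEAK that drives ductular growth in mice, gave 7.77, 8.46 and 7.74 without tumour and 8.88, 8.71 and 8.39 in the tumours. Non-tumour 483 was above tumour 616 and the groups overlapped, with a difference of 0.67 ± 0.29 (SE, limma unadjusted p = 0.0457, adjusted p = 0.916). Lgr5 and Axin2, targets of Wnt signalling, stood at -1.13 ± 0.90 and -0.86 ± 0.77, and both were lowest in tumour 405, at 4.99 and 5.20. Ncam1, an adhesion molecule of reactive ductules, stood at -0.27 ± 0.22. Afp read 10.92, 5.40 and 5.88 without tumour and 5.95, 5.29 and 7.04 in the tumours, so non-tumour 405 stood far above the rest. The difference was -1.30 ± 1.29 (SE). Its tumour mean, 6.09, was under the limit for dim features, 6.22, so Afp had to be lower in tumour, and its sign is a description only.

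Notch signalling directs hepatoblasts towards the duct fate. Of 17 pathway genes 16 were measured, 8 positive and 8 negative, with a median of -0.05 (9 and 7 after median centring, median 0.03). The ligand Dll4 lay at 7.97 ± 0.24 in non-tumour and 8.74 ± 0.56 in tumour (SD, n = 3 each, limma unadjusted p = 0.0451, adjusted p = 0.916). The receptor Notch2, which is needed for duct formation, stood at -0.89 ± 0.38 (SE) with no overlap (unadjusted p = 0.0467). Nrarp, a Notch target and feedback inhibitor, lay at 6.03 ± 0.56 and 6.94 ± 0.48, with overlap (limma, unadjusted p = 0.0233). Its non-tumour mean was under the limit for dim features, 6.22, so Nrarp passed through the tumour arrays and had to be higher there. Its sign and p are a description only. The glycosyltransferase Lfng stood at -0.43 ± 0.23 (SE). Notch2 was lowest in tumour 405, at 8.26, and Dll4 and Nrarp were highest in tumour 483, at 9.23 and 7.43. As deposited Dll4 stood at 0.34 and Nrarp at 0.38, and Notch2 at -1.15.

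The Hippo pathway restrains the coactivator Yap1, which is high in duct cells. Of its 19 genes 18 were measured, 6 positive and 12 negative after quantile normalization and 9 of each after median centring, with medians of -0.15 and -0.01 and 0 at an unadjusted p under 0.05. Yap1 itself stood at -0.31 ± 0.26 (SE, limma adjusted p = 0.916). The receptor kinase Axl, a Yap1 target, stood at -0.92 ± 0.50, the target Amotl2 at -0.44 ± 0.26 with no overlap, and the adaptor Ajuba at 0.57 ± 0.36.

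Of 9 other keratins 7 were measured, and all 7 were negative after quantile normalization, between -0.33 and -0.08, though Krt10 and Krt17 stood at 0.23 and 0.01 after median centring. Krt15, Krt14, Krt5 and Krt17, keratins of stratified epithelium, stood at -0.31, -0.19, -0.26 and -0.13, with 0 of the 7 at an unadjusted p under 0.05 (limma). Of 13 genes that anchor or modify keratin filaments 11 were measured, 3 positive and 8 negative after quantile normalization but 8 positive and 3 negative after median centring, again with 0 at an unadjusted p under 0.05. The desmosomal plakoglobin gene Jup stood at -0.54 ± 0.29 (SE), the plakin genes Ppl and Evpl at -0.42 ± 0.43 and -0.28 ± 0.24, and Sqstm1, whose protein gathers with Krt8 and Krt18 in Mallory-Denk bodies, at -0.25 ± 0.27, but at 0.28 after median centring.

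**Figure D4:**
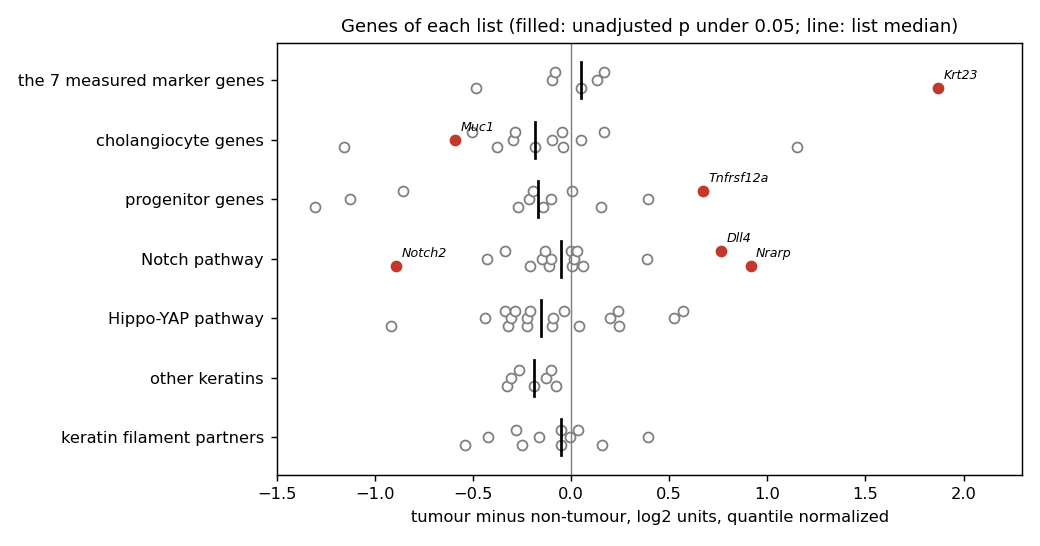
Difference between tumour and non-tumour, in log2 units after quantile normalization, of every measured gene in 7 lists. Each point is a gene, filled where the unadjusted limma p is under 0.05, and the black line is the list's median. Krt23, at 1.87, lies farthest from 0, and the 6 list medians other than that of the markers lie between -0.19 and -0.05.

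The label of the genes as duct markers was set against the other cell types of the tissue. Hepatocyte markers were bright on all arrays, with Alb, serum albumin, at 13.22 to 13.33. Among the features of the 7 measured markers, the lowest deposited intensity was 0.116, for the dimmer Krt8 feature in non-tumour 483. Of 8 hepatocyte markers 6 were measured, and their summed intensity ran from 42450 to 47400 in non-tumour and from 29570 to 42500 in tumour, lowest in tumour 405. Of 11 cholangiocyte markers, Krt19, Epcam and Sox9 among them, 7 were measured. Their summed intensity ran from 1091 to 1127 in non-tumour and from 963 to 1266 in tumour. In bulk tissue fewer cells of a type and less RNA per cell cannot be told apart.

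Markers of macrophages and stellate cells moved with individual arrays. Relative to the mean of the 6 arrays, the 6 macrophage markers stood at -0.83, 0.62 and 1.33 without tumour and at -1.75, 0.94 and -0.31 with it. Their summed intensity ran from 1933 to 8668 in non-tumour and from 800 to 7870 in tumour. Sox9 and Krt18 were highest in tumour 483 and non-tumour 623, the same 2 arrays on which the macrophage sum was highest. The endothelial sum, the 1 measured erythroid marker and the cholangiocyte sum, which holds Sox9, were highest on these arrays too. The sums of hepatocyte, stellate, mesothelial, pancreas, B cell, T cell and neutrophil markers were not. The part of any cell type in the Sox9 and Krt18 values was not tested. Tumour 405, the array with the most Krt23, was lowest in the mean of the 8 stellate markers, at -1.33 (summed intensity 4594 to 8226 in non-tumour, 1596 to 7111 in tumour), in the macrophage markers and in the hepatocyte markers, at -0.90. Tumour 616, next in Krt23, stood at 0.27, -0.31 and 0.15 for the same lists, and their part in the Krt23 difference was not tested. Among the hepatocyte markers, Cyp2e1 fell most in tumour 405, at 8.38 against 11.85 to 12.94 elsewhere. Tat and Cps1 were also lowest there, at 11.55 and 11.80. So was Alb, at 13.22, whereas Ttr stood at 13.20 there and was lowest in non-tumour 483. Alb read 13.33 on non-tumour 405 and 623 and tumour 483 and 616, the value that Tat took on non-tumour 483. Quantile normalization gives features of equal rank 1 value, so the small span of Alb does not establish a steady level. Mesothelium also carries simple keratins, and its 6 markers, all measured, stayed between -0.16 and 0.29 of their mean, with summed intensities of 1009 to 1391 in non-tumour and 1008 to 1115 in tumour.

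**Figure D5:**
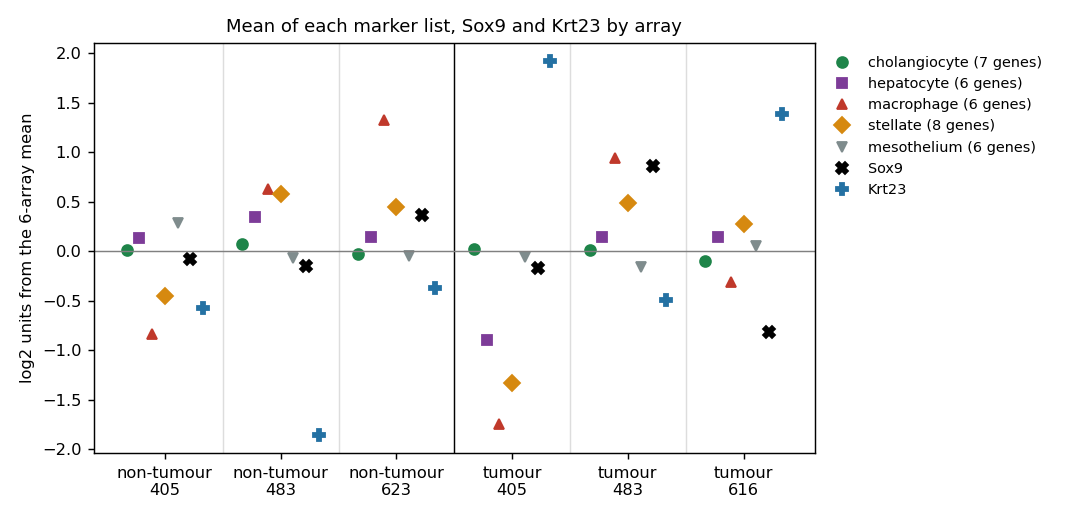
Mean of 5 cell type marker lists, with Sox9 and Krt23, on each array, in log2 units from the mean of the 6 arrays after quantile normalization. The mean of the cholangiocyte markers stays between -0.10 and 0.07 on all arrays, though Sox9, which is among them, runs from -0.82 to 0.86. Macrophage markers run from -1.75 in tumour 405 to 1.33 in non-tumour 623, and Krt23 is highest in tumour 405 and 616.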

How the data were processed

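Gene expression was measured in 3 liver carcinomas and 3 pieces of non-tumorous liver with 1 Affymetrix array each. The deposited intensity values are linear PLIER output, per the labels' protocols, with mm9 as build per the submitters' processing notes. Which PLIER release the authors ran is not stated in the labels. Of 238609 features, 24343 carried exactly 1 gene symbol, and 23782 of these were matched by Entrez number. Values were taken as log2(intensity + 16) and quantile normalized over the features with 1 symbol. Features were kept if their mean was at or above the 25th percentile (intensity 58.3), and the median over a gene's features gave 16828 genes. limma 3.58.1 in R 4.3.3 (lmFit, eBayes with an intensity trend, no covariates) compared the groups, with Benjamini-Hochberg adjustment over all genes and a threshold of 0.05. The steps were tested on simulated data. The number of arrays limits the precision. Members, lists and tests were chosen with earlier results of these data known. Besides the markers, the 4 genes per list with the smallest p and the 4 most like Krt19, Krt8 and Epcam are named. Afp is added for its level on non-tumour 405. Quantile normalization is the main setting because array medians as deposited spanned 1.20 log2 units. Labels share the numbers 405 and 483 between the groups without saying that a number is an animal, so samples were not paired. Alternatives changed the scaling, filter, added constant, choice of feature, variance model, pairing and arrays.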

Additional observations from a re-analysis of the deposited data

How the results depend on the processing

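The test called 0 of 16828 genes after quantile normalization, with unadjusted p under 0.05 for 454 higher and 171 lower genes (limma), and 53 genes on the values as deposited, where the prior degrees of freedom were infinite. It called 0 of the 7 markers under all 16 alternatives. Of 112 marker differences under an alternative, 104 kept their sign and 8 did not. Part of the 104 was fixed in advance. A change of the variance model alone cannot alter a difference, and the filter and the choice of feature altered only Krt8 and Prom1. Krt19 (-0.40) and Krt8 (-0.39) turned as deposited, but lay 0.08 and 0.09 above the median gene of that scale (-0.48). With single arrays left out, Krt19 ran from 0.03 to 0.27 (lowest without non-tumour 405, highest without 623), Krt8 from 0.02 to 0.24 (lowest without tumour 483, highest without tumour 405), Krt18 from -0.21 to 0.22 (-0.04 without non-tumour 483), Epcam from -0.23 to 0.0077, Sox9 from -0.53 to 0.30 (0.08 without non-tumour 623), Krt23 from 1.40 to 2.57 and Prom1 from -0.86 to -0.11. The numbers shared by samples 405 and 483 did not clearly pair them: their deviations from the group means correlated at 0.284 and -0.00702. Tumour and non-tumour samples with unlike numbers correlated at -0.347 to 0.248, so 405 was the highest. With the number as a replicate block of fixed terms, the difference comes from the samples numbered 405 and 483 alone. Sox9 then stood at 0.46 and Krt23 at 1.93 ± 0.33 (SE, limma adjusted p = 0.222), an SE that rests on those samples. With the number as a random block Krt23 stood at 1.88, and 0 genes were called either way. The cause of these shifts was not tested. Signal over background limits Krt19, Krt8, Epcam and Krt23, which are dim here, and adding 16 before the log understates the differences of dim features. The main fit rests on 3 arrays per group, and each fit with an array left out on fewer.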
